A study of Mus musculus with 6 samples.

Results

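The carbonic anhydrases were examined in whole kidneys of wild type C57BL/6 mice at postnatal day 15. The 10 genes studied were Car2, Car4, Car5a, Car5b, Car7, Car8, Car12, Car13, Car14 and Car15, chosen by gene symbol as the members of this enzyme family in kidney; all 10 were among the 24422 gene rows of the count tables. FeD (iron deficient) pups were born to dams whose synthetic food held 2 to 6 ppm iron, and control pups to dams given a different product, PicoLab food with 220 ppm iron. Iron and other contents of the food therefore cannot be told apart. Dams were 8 weeks old when the diets began and kept them through mating, pregnancy and nursing. Each group had 3 kidneys, 1 RNA-seq library per kidney, and neither group carried an engineered allele. The number of litters was not given, so litter and diet cannot be told apart.

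Carbonic anhydrases interconvert carbon dioxide and bicarbonate. In the kidney tubule they sit on both faces of the cell membrane and in the cytosol, and they are known for supplying the protons and bicarbonate that proximal tubule transporters and intercalated cells move. The isozymes differ in location. Car2, Car7 and Car13 are cytosolic, Car5a and Car5b are mitochondrial, Car4 and Car15 are held on the outer membrane by a lipid (GPI) anchor, and Car12 and Car14 span the membrane with an outward-facing catalytic domain. Car8 keeps the fold of the family but has no catalytic activity, and is known as a binding partner of an inositol trisphosphate receptor.

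A zinc ion held by 3 histidines carries out the reaction. The coding sequence around the first pair of these histidines is shown for the 9 catalytic isozymes because it is the part of the active site that they share. Each run is 27 bases of the GENCODE coding sequence on the mm9 assembly (NCBIM37), 5′ to 3′, and the capitals mark the codons aligned with zinc-binding codons 94 and 96 of Car2.
Car2: cagtttCACtttCACtggggctcatct
Car7: cagctcCACttcCACtggggcaagaag
Car13: cagttcCATttgCACtgggggtcagca
Car5a: cagtttCATttcCACtggggagcaaca
Car5b: cagtttCATtttCATtggggagccatt
Car4: cagttgCACctgCACtggtcaaatggg
Car12: cagctgCACttgCACtgggggaaccgc
Car14: cagctcCACctgCACtggggtcagaga
Car15: cagctgCACttcCACtggggcagccca
Histidine is encoded by CAC or CAT. These 9 genes had histidine codons at all 3 zinc positions, the third being codon 119 in Car2. The runs themselves varied: of the 27 bases, Car13 and Car5a had 21 as in Car2, Car5b 20, Car15 19, Car7 18, Car12 17, Car14 16 and Car4 15.

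Library totals were 16189041 to 20374327 counts in control and 13732173 to 20853293 in FeD kidneys, and the 10 genes together took 20403 to 25517 and 11453 to 24579 of these. A floor of 3 counts corresponded to 0.144 to 0.219 CPM and covers counting error only. Markers of proximal tubule, loop of Henle, distal tubule, collecting duct and podocytes were present in every kidney. Erythroid RNA was highest in control kidney 2, where Alas2, the erythroid enzyme of heme synthesis, stood at 42.5 CPM against 26.9 CPM or less in the other 5. FeD kidneys differed more among themselves than controls did (chi-square over degrees of freedom, 12.1 to 32.0 for pairs of FeD kidneys and 3.86 to 7.63 for pairs of controls). Values below are normalized counts (raw counts scaled by edgeR's TMM factors to the mean library size), given as mean ± SD with 3 kidneys per group, and each adjusted P comes from a quasi-likelihood fit in edgeR, corrected by Benjamini-Hochberg for 15145 tested genes. The log2 ratio is the fitted log2 fold change of FeD over control, ± its standard error (SE).

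FeD kidneys had less RNA of most carbonic anhydrases and more of Car15. Car5a met the filter for low counts only through its control kidneys, where it is high. Its low call is therefore not used as support, and it is left out of the next counts. Of the other 9 genes, 5 fell at an adjusted P under 0.05 (Car2, Car4, Car7, Car12 and Car14), against 23.3% of all tested genes that fell by this rule. Car15 alone rose, where 22.4% of all tested genes did. Car5b, Car8 and Car13 did not pass. Car7 and Car14, 2 of the 9, also fell at least 2-fold, against 5.69% of all tested genes, and 0 rose that much, against 4.34%. With Car5a the counts are 6 and 3 of 10. The median log2 ratio of the 10, Car5a included, was -0.56, where the median of all tested genes was 0.00 (-0.0018). Without Car5a the middle value of the other 9 was that of Car13, -0.42. Every FeD kidney lay below every control kidney for 6 of the 9 (29.7% of all tested genes) and above for Car15 (28.3%).

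**Figure D1:**
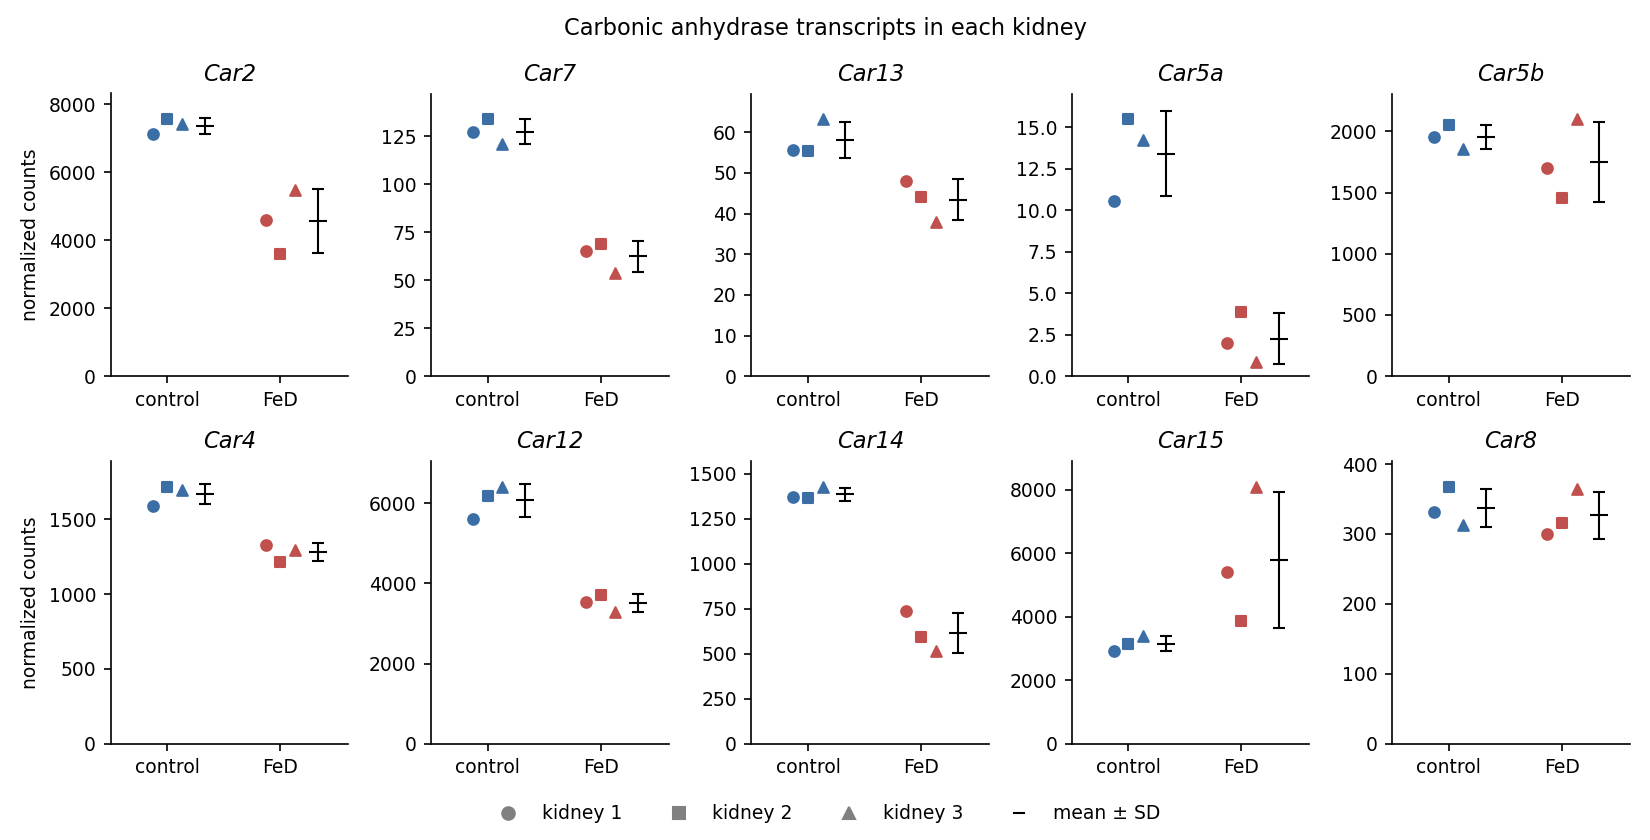
Normalized counts (y axis, from 0, a separate scale in each panel) of the 10 carbonic anhydrase genes in 3 control and 3 FeD kidneys; each point is 1 kidney, its shape gives the kidney number, and the bar is the mean ± SD. FeD points lie wholly below the control points for 7 genes, wholly above them for Car15 and among them for Car5b and Car8.

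Car2 is the abundant cytosolic isozyme of tubule cells and is also plentiful in red blood cells. It lies on the plus strand of chromosome 3 (mm9, 14886426 to 14900769). Control kidneys held 7107, 7556 and 7402 normalized counts and FeD kidneys 4604, 3600 and 5476. The groups did not overlap, and the spread was wider in FeD (coefficient of variation 20.6%) than in control kidneys (3.10%). Car2 fell by 38% from 7355 ± 228 to 4560 ± 939 (SD, n = 3), with a log2 ratio of -0.69 ± 0.14 SE (edgeR adjusted P = 0.0043). Without control kidney 2, the one with the most erythroid RNA, the log2 ratio was -0.67 and the edgeR adjusted P 0.021, the highest of the fits that left out 1 kidney. Of the 10 erythroid markers, 8 were rows of the tables, 4 globin genes were listed at 0 in every kidney, and the summed level of the 8 ran from 141 to 200 CPM in control and 44.1 to 84.6 CPM in FeD kidneys. Most of that sum was Slc4a1, which intercalated cells also express (122 to 150 CPM in control and 32.4 to 79.5 CPM in FeD kidneys). The part of red cells in the fall of Car2 was not tested.

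The minor cytosolic isozymes were Car7 and Car13. Car7, best known from brain, lies on chromosome 8 (mm9, 107058600 to 107074243) and held 127, 134 and 121 normalized counts in control kidneys against 65.0, 68.8 and 53.6 in FeD kidneys. Car7 therefore stood about 2-fold lower in each FeD kidney (log2 ratio -1.03 ± 0.16 SE, edgeR adjusted P = 0.0015). Its 2-fold call rested on a narrow margin and was lost without control kidney 2 or without FeD kidney 3, with a log2 ratio no smaller in size than -0.92 in any fit that left out 1 kidney. Car13, a neighbour of Car2 on chromosome 3 (mm9, 14641727 to 14663002), had 58.1 ± 4.47 in control and 43.4 ± 5.05 in FeD kidneys. The groups did not overlap, but Car13 did not pass the test (log2 ratio -0.42, 95% interval -0.89 to 0.04, edgeR adjusted P = 0.12).

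The mitochondrial isozymes supply bicarbonate for carboxylation reactions inside the mitochondrion. Car5b (chromosome X, mm9, 160414754 to 160465929) held nearly all of their RNA, with 1958, 2049 and 1858 normalized counts in control and 1704, 1452 and 2100 in FeD kidneys. FeD kidney 3 was the highest of all 6, so the groups overlapped. The log2 ratio of Car5b was -0.15 (95% interval -0.43 to 0.12, edgeR adjusted P = 0.33), and without FeD kidney 3 it was -0.29 with an adjusted P of 0.016. Car5a (chromosome 8, mm9, 124440026 to 124468804), which is chiefly a liver isozyme, was near the floor. Its raw counts were 11, 14 and 16 in control kidneys and 2, 3 and 1 in FeD kidneys. Summed over kidneys and corrected for depth, control held 6.53 times the FeD level (exact 95% counting interval 2.76 to 18.8). This interval covers counting error only, leaves out the spread between kidneys and is not read as a test. No test is read from Car5a, which had been admitted by its control kidneys and could not be tested where every kidney had to hold 10 counts. Of the exon bases of Car5a, 23.4% are overlapped by BC048644 on the other strand, which held at most 1 count per kidney.

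The membrane isozymes moved in opposite directions. Car14 fell most of the 4. This transmembrane isozyme, found in proximal tubule, lies on chromosome 3 (mm9, 95701691 to 95708614) and held 1368, 1363 and 1428 normalized counts in control kidneys. FeD kidneys held 737, 594 and 518. The highest FeD kidney thus stood well under the lowest control kidney, and the log2 ratio was -1.17 ± 0.12 SE (edgeR adjusted P = 0.00022), with a range of -1.30 to -1.04 when each kidney was left out in turn. Of the exon bases of Car14, 17.5% are overlapped by Aph1a, which runs the other way. If the counting ignored strand, this overlap could alter the count of Car14, in a direction not known here. Aph1a itself had a log2 ratio of -0.17 (edgeR adjusted P = 0.11).

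Car12, a transmembrane isozyme of the basolateral side of tubule cells, lies on chromosome 9 (mm9, 66561493 to 66614652). Control kidneys had 5620, 6191 and 6416 normalized counts and FeD kidneys 3539, 3710 and 3283. Both groups were tight, with coefficients of variation of 6.75% and 6.12%. Car12 fell by 42.2% (log2 ratio -0.79 ± 0.08 SE, edgeR adjusted P = 0.00018), the smallest adjusted P of the 10 genes. Car4, the GPI-anchored isozyme of the proximal tubule brush border, which also marks some capillaries, lies on chromosome 11 (mm9, 84771288 to 84779546). Car4 held 1592, 1719 and 1698 in control against 1330, 1212 and 1298 in FeD kidneys. It fell by 23.4% (log2 ratio -0.38 ± 0.06 SE, edgeR adjusted P = 0.0018), the smallest fall among the genes that passed.

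Car15, the second GPI-anchored isozyme, is an active enzyme in mouse that humans lack. It lies on the minus strand of chromosome 16 (mm9, 17835369 to 17838457). Control kidneys held 2927, 3138 and 3407 normalized counts and FeD kidneys 5411, 3862 and 8104. Every FeD kidney lay above every control kidney, yet the FeD kidneys differed by a coefficient of variation of 37.1%, against 7.62% in control. The mean rose 1.83-fold from 3157 ± 241 to 5792 ± 2147 (SD, n = 3), with a log2 ratio of 0.88 ± 0.23 SE (95% interval 0.35 to 1.40, edgeR adjusted P = 0.015). Its size rested most on FeD kidney 3: without it the log2 ratio of Car15 was 0.57 (edgeR adjusted P = 0.0083), and without FeD kidney 2 it was 1.12 (edgeR adjusted P = 0.0015). Without control kidney 1 or 2 the log2 ratio was 0.82 or 0.87 and the edgeR adjusted P 0.056 or 0.054, which did not pass. In the annotation, 82% of the exon bases of Car15 are also exon of Gm20518 on the same strand. No gene row of the counts bore the name Gm20518, and how the counting treated reads on that overlap is not given in the sources used here.

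Car8, the member without catalytic activity, held 331, 368 and 313 normalized counts in control and 300, 315 and 365 in FeD kidneys. These values overlapped, and Car8 (chromosome 4, mm9, 8070514 to 8166188) did not pass the test, with a log2 ratio of -0.04 and a 95% interval of -0.29 to 0.21 (edgeR adjusted P = 0.78). Its direction turned in 3 of the 6 fits that left out 1 kidney.

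**Figure D2:**
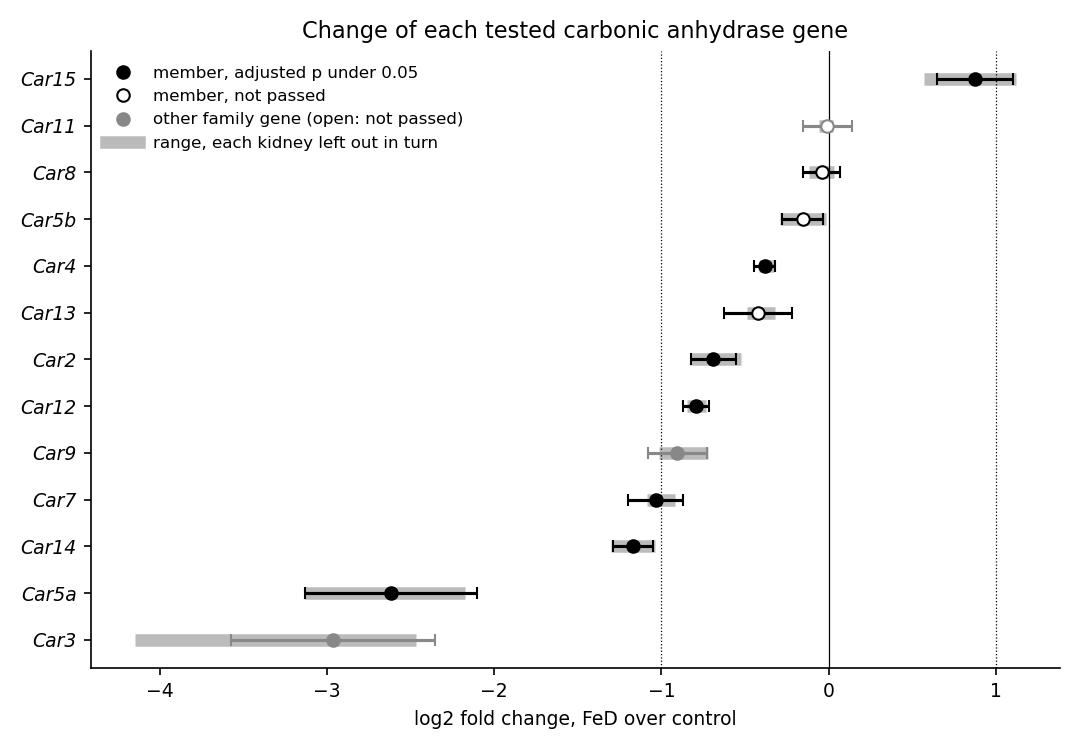
Log2 ratio of FeD over control (x axis) for the 10 genes and the 3 further family genes that could be tested, ordered by size; points are edgeR estimates with standard error, filled where the adjusted P was under 0.05, and grey bars span the fits with each kidney left out. Car15, at 0.88, is the highest point, Car14 and Car7 lie just past the dotted 2-fold line, and Car5a and Car3 lie far past it with wide bars.

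FeD kidneys did not rank the same way for each isozyme. FeD kidney 3 was the highest FeD kidney for Car2, Car5b, Car8 and Car15 and the lowest for Car5a, Car7, Car12, Car13 and Car14. FeD kidney 2, the library with the fewest counts, was the lowest for Car2, Car4, Car5b and Car15. The order of Car2 and Car15 over FeD kidneys (kidney 3, then 1, then 2) is also the order of their library totals, and the part of depth in it was not tested.

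Levels of different genes can be compared only per length, so normalized counts were divided by the kilobases of annotated exon. In control kidneys the order was Car2 (4111 ± 127 counts per kilobase), Car15 (2461 ± 188), Car12 (1339 ± 90.3), Car4 (849 ± 34.6), Car14 (545 ± 14.3), Car5b (308 ± 15.0), Car8 (87.6 ± 7.18), Car7 (51.9 ± 2.61), Car13 (25.3 ± 1.95) and Car5a (10.03 ± 1.92). No neighbours in this order overlapped between control kidneys. In FeD kidneys Car15 came first with 4515 ± 1673 counts per kilobase and Car2 second with 2549 ± 525, and the ranges of this pair overlapped, as did those of Car5b (276 ± 51.4) and Car14 (242 ± 43.9), which had also traded places. The per-kilobase ratio of Car15 to Car2 was 0.57, 0.58 and 0.64 in control kidneys and 1.64, 1.5 and 2.06 in FeD kidneys. By these lengths Car15 was the more abundant of the pair within every FeD kidney, and Car2 within every control kidney. The length of Car15 includes the 82% of its exon bases shared with Gm20518. If reads on those bases were not counted, its level per kilobase is too low here. Its rank, its ratio to Car2 and its share below would then be higher in both groups, which was not tested.

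Whether the sum of the family separated the groups depended on its scale, while the shares of several isozymes in it did not overlap. Summed per kilobase, the 10 genes gave 9318, 9952 and 10093 in control and 8932, 7050 and 11428 in FeD kidneys (exact permutation test, two-sided P = 0.70). Summed without length, they gave 22136 ± 902 normalized counts in control and 17946 ± 3192 in FeD kidneys (exact permutation test, two-sided P = 0.20), and scaled by library size alone 1202 to 1260 CPM and 834 to 1179 CPM, which did not overlap. Of the sum per kilobase, Car15 made up 25.1% ± 1.03 in control and 48.4% ± 6.37 in FeD kidneys. Car2 made up 42.0% ± 0.90 and 28.0% ± 1.1, Car12 13.7% ± 0.36 and 8.88% ± 2.64, and Car14 5.57% ± 0.19 and 2.78% ± 0.87. The membrane isozymes together made up 53.0% ± 1.21 in control and 67.4% ± 1.51 in FeD kidneys, the cytosolic ones 42.8% ± 0.92 and 28.6% ± 1.25, while the mitochondrial share was 3.25% ± 0.21 and 3.07% ± 0.20. Within the membrane group Car15 alone gained share (23.3 percentage points). The mean shares of Car12 (-4.78), Car14 (-2.79) and Car4 (-1.31, with overlap between groups) were lower in FeD kidneys. These sizes depended on the division by length: the change from control to FeD was 14.4 percentage points for the membrane group, -14.3 for the cytosolic group and -0.18 for the mitochondrial pair per kilobase, and 6.97, -8.15 and 0.865 with raw counts, so that the mitochondrial pair turned direction. For Car2 the change was -14 points per kilobase and -7.92 with raw counts. Shares of Car2, Car7, Car12, Car14, Car15, the membrane group and the cytosolic group did not overlap between groups and reached 0.10, the smallest P that an exact two-sided permutation test of 3 against 3 kidneys allows (0.163 after Benjamini-Hochberg adjustment over the 13 shares), so none could pass 0.05. The 13 include Car5a, from which no test is read. Shares of one sum are not independent: a larger share of Car15 lowers the others, and the groups contain isozymes also listed singly.

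**Figure D3:**
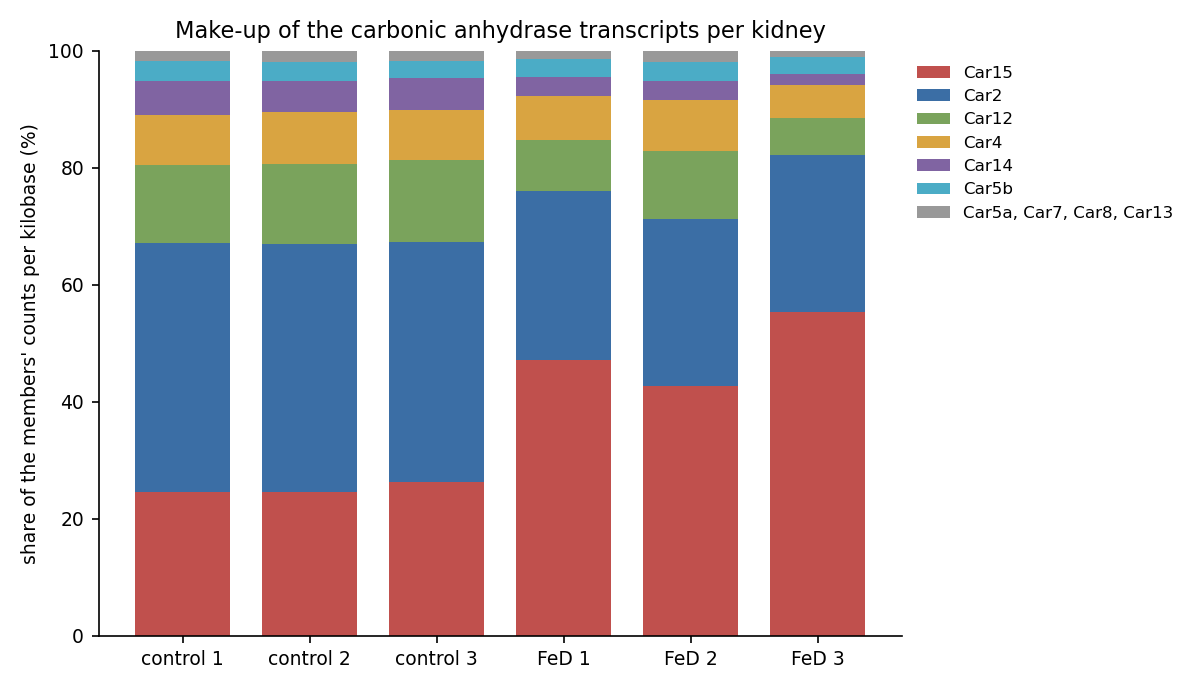
Share of each carbonic anhydrase in the summed counts per kilobase of the 10 genes (y axis, percent) for each of the 6 kidneys; Car5a, Car7, Car8 and Car13 are drawn together. Car15 takes 24.5% to 26.3% in the control bars and 42.7% to 55.3% in the FeD bars, and Car2 takes 41.0% to 42.6% and 26.8% to 28.8%.

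The 6 other genes of the family gave little RNA apart from Car3. Car1, Car6 and Car10 were below the filter for low counts and were not tested; Car1, a red cell isozyme, had 12 counts in control kidney 2 and at most 3 in the other kidneys. Car9, a membrane isozyme known as a target of hypoxia inducible factor, fell to 99.0 ± 21.5 normalized counts from 184 ± 7.23 in control (log2 ratio -0.91, edgeR adjusted P = 0.0039), and 9.29% of its exon bases are overlapped by Gm12454 on the other strand. Car11, a further family member without catalytic activity, was at 90.9 ± 5.35 and 90.4 ± 0.80 (95% interval of the log2 ratio -0.35 to 0.33, edgeR adjusted P = 0.97). Car3, the isozyme typical of muscle and fat, fell from 1478, 1424 and 1499 in control kidneys to 129, 25.95 and 387 in FeD kidneys (log2 ratio -2.96 ± 0.61 SE, edgeR adjusted P = 0.0052). Fat markers fell with it and muscle markers did not. Of the fat genes, Adipoq, Plin1 and Cfd fell (log2 ratios of -0.97, -2.42 and -2.15). Of 5 muscle genes, Tnnt3 alone could be tested and had a log2 ratio of 1.04 (edgeR adjusted P = 0.38), while Acta1, Myh1, Myh4 and Ckm were below the filter, with higher FeD than control means that came mostly from FeD kidney 1 (112 normalized counts of Acta1 and 172 of Myh1, against at most 12.2 and 0 in the other kidneys). The summed level of the whole list, 8 genes, was 121 to 141 CPM in control and 25.8 to 62.2 CPM in FeD kidneys. The part of fat around the kidney in the fall of Car3 was not tested.

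The genes whose products work beside carbonic anhydrases, a list of 30 bicarbonate and proton transporters, pumps and their partners, were read in the same fit. Of 28 tested, 5 rose and 15 fell at an adjusted P under 0.05, and 2 rose and 4 fell at least 2-fold, where 22.4% and 23.3% of all tested genes rose and fell, and 4.34% and 5.69% did so 2-fold. The 5 that rose are a smaller share of the list than that background, and the list had a median log2 ratio of -0.32. The sodium bicarbonate cotransporter Slc4a4, the basolateral exit of bicarbonate from proximal tubule, rose from 9364 ± 621 to 13870 ± 1170 (log2 ratio 0.57, edgeR adjusted P = 0.0015), opposite to Car4, Car14 and Car2. The apical sodium proton exchanger Slc9a3 had 1925 ± 59.0 and 1329 ± 503 and did not pass (edgeR adjusted P = 0.080). The water channel Aqp1, which also lets carbon dioxide through, fell from 19990 ± 302 to 14592 ± 220 (log2 ratio -0.45, edgeR adjusted P = 0.0013). Largest among the falls were those of Slc4a11 (log2 ratio -1.80), the chloride bicarbonate exchangers Slc26a4 (-1.67) and Slc4a1 (-1.42), and Slc26a7 (-1.25); the largest rise was that of the proton potassium pump Atp12a (1.45). Slc4a1 is an erythroid as well as an intercalated cell gene.

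Whole kidneys were sequenced, so fewer cells of a type and less RNA per cell cannot be told apart. Segment markers were therefore set beside the isozymes, with an adjusted P under 0.05 as the rule, by which 23.3% of all tested genes fell and 22.4% rose. Of 10 proximal tubule markers 9 fell and 0 rose (median log2 ratio -1.18), and they spread widely. Lrp2 and Cubn, which fell by 0.48 and 0.45 on the log2 scale, Fbp1 (-0.52) and Slc22a6 (-1.08) fell less than Car14 (-1.17). Slc5a2 (-4.89), Miox (-3.40), Slc34a1 (-2.22), Slc13a3 (-2.13) and Slc7a13 (-1.29) fell more than Car14, and Slc5a12 at 0.18 did not pass. Of 9 intercalated cell markers 5 fell and 2 rose, the latter at the background share (median -0.37), among them Atp6v1b1 at -0.30 and Atp6v0d2 at 0.57, beside Car2 at -0.69. Of 7 principal cell markers 4 rose and 1 fell (median 0.32), with Aqp2 and Aqp3 at 1.13 and 1.1. Distal convoluted tubule markers fell in 3 of 4 (Slc12a3 -1.56, Pvalb -5.08), loop of Henle markers in 2 of 6 (Slc12a1 at 0.13 and Umod at -0.40 did not pass), and endothelial markers in 6 of 7 (Pecam1 at 0.09 did not pass, Cdh5 -0.42). Of podocyte markers 1 of 5 rose, Wt1, while Nphs1 (-0.14) did not pass, and of macrophage markers 3 of 7 rose and 1 fell (Cd68 1.12, Csf1r -0.45). Of the erythroid markers 3 could be tested and Slc4a1 alone fell; Alas2 had a log2 ratio of -1.17 (edgeR adjusted P = 0.081). The summed marker levels ran from 9242 to 9788 CPM in control and 3196 to 3665 CPM in FeD kidneys for proximal tubule, from 1038 to 1139 and 762 to 853 for intercalated cells, and from 1268 to 1732 and 1878 to 3193 for principal cells. The part of cell composition in the changes of the isozymes was not tested.

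**Figure D4:**
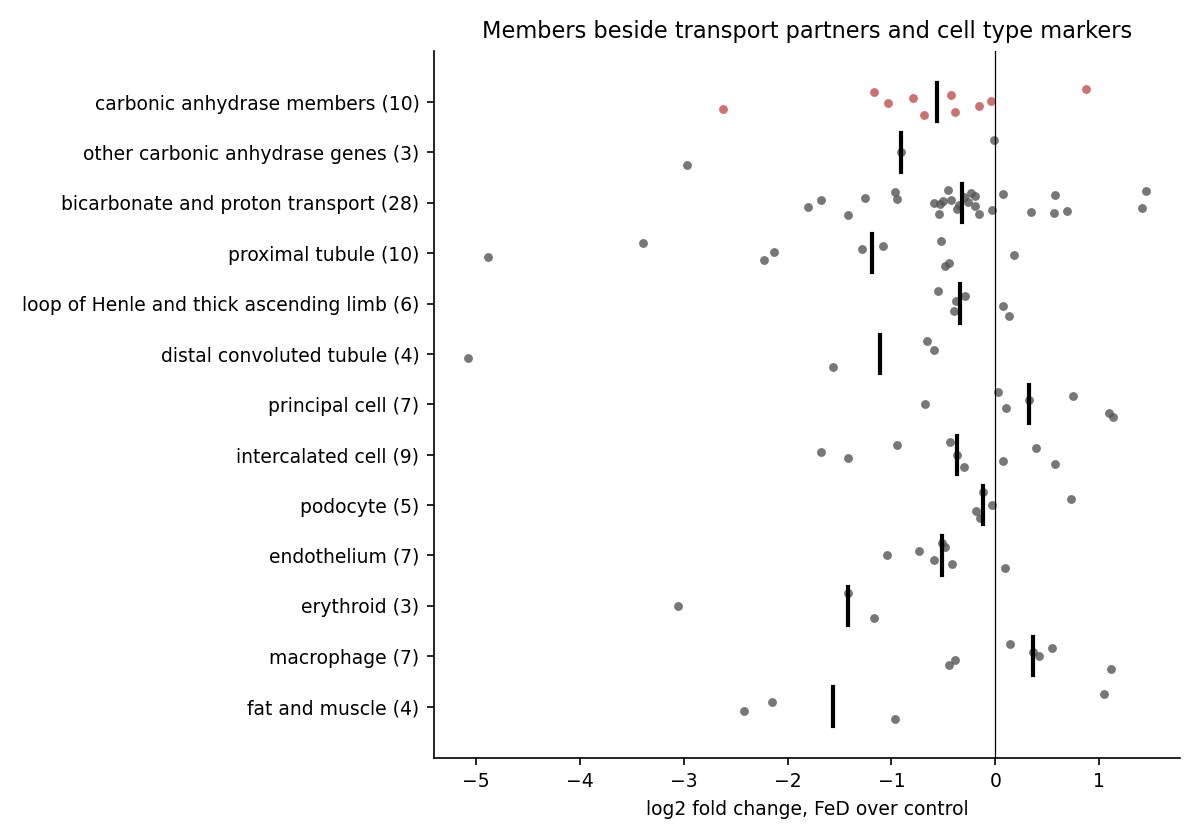
Log2 ratios of FeD over control (x axis) for every tested gene of each list (number in brackets); red points are the 10 carbonic anhydrases, grey points the other lists, and black bars the medians. The median of the 10 carbonic anhydrases was -0.56 with Car5a included and -0.42, the value of Car13, without it. Marker medians on either side of these values were those of proximal tubule (-1.18), distal convoluted tubule (-1.11), endothelium (-0.51), intercalated cells (-0.37) and loop of Henle (-0.34). The principal cell median lies above 0 (0.32).

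Promoter sequence was read for the genes with the largest 2-fold fall and the rise among well-expressed members, Car14 and Car15, because they moved in opposite directions; the pair was chosen after its values were seen. The RefSeq promoter table (GRCm38.p6, 250 bases before to 50 bases after the start) held 9 promoters of 7 of the 10 genes; Car2, Car8 and Car13 were missing. The letters ACGTG and GCGTG, the cores of hypoxia response elements, were searched on both strands and are set in capitals (CACGT on the other strand). Both promoters below are minus-strand, written 5′ to 3′, Car14 at chr3:95904636-95904935 and Car15 at chr16:17838137-17838436.
Car14: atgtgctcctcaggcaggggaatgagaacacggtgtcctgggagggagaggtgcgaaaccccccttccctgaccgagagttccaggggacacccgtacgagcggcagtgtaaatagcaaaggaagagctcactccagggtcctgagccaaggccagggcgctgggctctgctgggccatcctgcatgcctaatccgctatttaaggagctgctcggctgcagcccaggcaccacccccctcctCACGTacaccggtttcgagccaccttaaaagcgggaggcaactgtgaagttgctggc
Car15: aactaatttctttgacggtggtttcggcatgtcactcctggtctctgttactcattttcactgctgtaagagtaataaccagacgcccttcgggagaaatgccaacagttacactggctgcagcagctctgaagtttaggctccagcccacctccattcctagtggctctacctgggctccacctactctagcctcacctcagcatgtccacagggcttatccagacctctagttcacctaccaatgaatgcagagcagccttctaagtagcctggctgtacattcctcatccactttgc
Car14 held 1 such core and Car15 held 0 in these 300 bases, where 43.8% of the 32851 promoters in the table held at least 1. The Car15 promoter had a GC content of 50.3% with 4 CpG, and the Car14 promoter 61.0% with 13; the median promoter had 52.7% and 7. Among the others, Car5b held 5 cores, Car4 held 1, Car12 and Car5a held 0, and the 3 promoters of Car7 held 2, 0 and 1. These are counts of letters in a fixed window and were not tested against the changes.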

How the data were processed

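Total kidney RNA of 3 control and 3 FeD pups was measured by RNA-seq. According to the methods and processing notes, the authors enriched polyadenylated RNA, made TruSeq libraries, converted base calls with CASAVA 1.8.2, trimmed with Trimmomatic, aligned to mm9 with TopHat2 2.0.11 and counted with HTSeq; the deposited values are raw counts per gene symbol, one column per kidney. Annotation, counting mode, strand setting and the handling of reads with several matches are not given in the sources used here. Such choices decide how reads of duplicated exons and overlapping genes were assigned.

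Counts were fitted over all genes in R 4.3.3 with edgeR 4.0.16 (filterByExpr, TMM, quasi-likelihood test, no covariate). Thresholds were an adjusted P of 0.05, and additionally a fold change of 2 where stated. The standard error is the log2 fold change divided by the square root of F, and 95% intervals use the moderated degrees of freedom. P values reflect the spread between these kidneys. Exon lengths, positions, exon overlaps and coding sequences came from GENCODE vM1 (NCBIM37, the same assembly as mm9), in which 20608 symbols matched 1 gene; coding sequences were aligned through their translation to Car2. Fitting was tested on simulated counts.

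The 10 members and the lists were chosen with earlier results of these data known. Named were all family genes, the up to 4 largest called rises and falls of the transport list whose mean reached 50 normalized counts plus Slc4a4, Slc9a3 and Aqp1, and the first 2 genes of each marker list (some items are not reported here); any others were picked with their values known. Alternatives were DESeq2 1.42.0, its size factors, library size alone, other count filters, a replicate block, a test in edgeR of changes beyond 2-fold, globin and mitochondrial genes left out, other gene lengths, and each kidney left out.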

Additional observations from a re-analysis of the deposited data

How the results depend on the processing

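The 10 carbonic anhydrases, the other family genes, the transport list and all genes were recomputed under each alternative of the fit, and the shares with other lengths and with each kidney left out; marker lists were not recomputed. Dropping the fold threshold gave 7 of the 10 carbonic anhydrases, 2 of the other family genes, 20 transport genes and 6924 genes in all, and a test in edgeR of changes beyond 2-fold gave 0, 0, 2 and 511 (225 higher, 286 lower), where the reported numbers were 3, 1, 6 and 1519; the stricter test asks for more than a point estimate past 2-fold. With each kidney left out, 2 to 4 of the 10 were called, 1 to 2 other family genes (Car9 joined Car3 without FeD kidney 2), 5 to 7 transport genes and 1431 to 1707 genes in all. A minimum of 10 counts in every kidney left Car5a untested, so 2 of the 10 were called. Under DESeq2, DESeq2's size factors, library size alone or no count filter, Car7 and Car14 were called as in the reported fit. The same held without globin and mitochondrial genes. Car5a was called in these fits too, but no test is read from it, and counts of the 10 in this paragraph include it. Kidneys with the same number share only that number: their deviations correlated at -0.16, 0.00 (9.57e-05) and -0.03, and with the replicate number as a block 3 of the 10 (the same 3) and 1534 genes in all were called, so this pairing moved no call of a carbonic anhydrase. Directions turned for Car8 and Car11, which lay near 0 on the log2 scale: with each kidney left out Car8 ran from -0.119 to 0.0342, and turned without control kidney 2, FeD kidney 1 or FeD kidney 2, and Car11 ran from -0.0556 to 0.0281 and stood at 0.000501 with DESeq2's size factors, 0.00263 with at least 10 counts and 0.000294 with DESeq2. Car15 was not called in the reported fit, and without control kidney 1 or 2 it no longer passed an adjusted P of 0.05. Without FeD kidney 2 it reached 2-fold and was called (log2 ratio 1.12). Shares depended on length: with the longest transcript, the change in share (FeD minus control, percentage points) was -11.6 for Car2, -11.9 for the cytosolic and 11.9 for the membrane isozymes in place of -14.0, -14.3 and 14.4, and with raw counts it was -7.92, -8.15 and 6.97, -0.05 (-0.0466) for Car5a, 0.91 for Car5b, 0.32 for Car8 and 0.86 (0.865) for the mitochondrial pair. With 3 kidneys a group, the intervals of Car5b, Car8 and Car13 span 0 and also allow falls, so these data do not show that they were unaltered, and for Car5a the few counts limit the size of its fall.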
